A study of Homo sapiens with 12 samples.

Results

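Small nucleolar RNAs and small Cajal body RNAs were followed in HCT116 cells under topoisomerase inhibitors. A gene row was a member if its symbol starts with SNORD (box C/D), SNORA (box H/ACA) or SCARNA (Cajal body) and if it had at least 20 raw reads in at least 1 of the 12 libraries. This gave 204 members out of 395 such rows and 26364 gene rows in all, comprising 109 of 264 box C/D rows, 76 of 107 box H/ACA rows and 19 of 24 Cajal body rows. Of the other 191 rows, 140 had no read in any library and 51 had at least 1 read. SNORD1B and SNORD126, each with at most 20 reads in a library, were just inside the limit, and SNORD18B, SNORA84 and SCARNA23, each with at most 19 reads, were just outside it. The members were chosen by these reads, so that their levels are given as a description.

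RNA-seq of total RNA was available for 1 library per condition. HCT116 is a human colon cancer cell line. WT cells and the p65-deficient single-cell clone 32 received no inhibitor, the TOP1 inhibitor camptothecin (CPT) or the TOP2 inhibitor ICRF193 (5 µM for 2 h), each without TNFα (0 h) or with 20 ng/mL TNFα for 1 h. All libraries of the p65-deficient group come from 1 clone, which the study's methods describe as made with CRISPR-Cas9 and the labels as shRNA p65, so that the missing p65 and the clone cannot be told apart. The study describes the inhibitor as a 2 h pre-treatment before the 1 h of TNFα. Exposure to an inhibitor can thus be longer in the 1 h than in the 0 h libraries. No condition has a replicate, and libraries matched on the other factors served as pairs.

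Box C/D RNAs carry the enzyme fibrillarin to the sugar of a target nucleotide for 2′-O-methylation, and box H/ACA RNAs carry dyskerin to a uridine for pseudouridylation. Most of both kinds guide the modification of ribosomal RNA in the nucleolus, a few take part in the cleavage of its precursor, and the RNAs of the Cajal body guide the modification of spliceosomal snRNAs. In human cells nearly all of them are cut from introns of other genes while the exons of those genes are spliced. RNA polymerase II transcribes the surrounding gene, and TOP1 relieves the torsional stress that arises as it moves.

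The sequences of some members that the results turn on are shown as DNA letters from the GENCODE release 29 transcripts (GRCh38), which held 182 of the 204 members by symbol. The first box C/D pair lies within *GNB2L1*, the second within *RPL3*, and SNORD101 lies within *RPS12*. Capitals mark the C box TGATGA and the D box CTGA.
SNORD95: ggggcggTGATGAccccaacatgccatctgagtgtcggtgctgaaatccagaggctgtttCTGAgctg
SNORD96A: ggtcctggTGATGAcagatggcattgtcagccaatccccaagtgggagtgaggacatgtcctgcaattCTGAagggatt
SNORD43: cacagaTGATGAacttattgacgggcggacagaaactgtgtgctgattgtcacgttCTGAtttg
SNORD83B: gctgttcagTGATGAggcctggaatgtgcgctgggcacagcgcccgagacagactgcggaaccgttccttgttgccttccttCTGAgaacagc
SNORD101: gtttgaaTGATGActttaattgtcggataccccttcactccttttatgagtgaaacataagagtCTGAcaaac
For the box H/ACA members, SNORA63 and SNORA4 of *EIF4A2*, SNORA75 of *NCL*, SNORA23 of *IPO7* and SNORA73B of *RCC1*, and for SCARNA21 of *CHD3*, capitals mark the ACA nearest to the 3′ end.
SNORA63: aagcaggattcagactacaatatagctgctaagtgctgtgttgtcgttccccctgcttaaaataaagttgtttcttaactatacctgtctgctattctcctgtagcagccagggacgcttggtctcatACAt
SNORA4: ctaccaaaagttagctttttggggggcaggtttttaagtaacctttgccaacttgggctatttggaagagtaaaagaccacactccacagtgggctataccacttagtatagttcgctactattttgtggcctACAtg
SNORA75: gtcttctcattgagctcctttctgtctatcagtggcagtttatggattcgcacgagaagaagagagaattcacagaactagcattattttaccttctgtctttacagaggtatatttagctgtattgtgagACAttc
SNORA23: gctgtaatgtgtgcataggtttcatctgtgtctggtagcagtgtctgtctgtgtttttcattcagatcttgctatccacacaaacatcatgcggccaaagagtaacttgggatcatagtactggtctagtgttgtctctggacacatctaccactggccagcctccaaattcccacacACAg
SNORA73B: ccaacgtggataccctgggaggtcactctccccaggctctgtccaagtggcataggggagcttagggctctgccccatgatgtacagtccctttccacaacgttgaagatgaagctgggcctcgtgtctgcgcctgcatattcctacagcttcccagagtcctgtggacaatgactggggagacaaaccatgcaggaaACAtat
SCARNA21: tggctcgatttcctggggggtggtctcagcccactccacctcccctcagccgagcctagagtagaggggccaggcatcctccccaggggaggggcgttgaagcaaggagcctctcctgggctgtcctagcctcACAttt
The C box in the first 30 bases together with the D box in the last 20 bases was found in 61 of 95 matched box C/D members (64.2%), in 0 of 71 box H/ACA members and in 5 of 16 Cajal body members (31.2%). The letters ACA in the last 8 bases were found in 65 of 71 box H/ACA members (91.5%), in 10 of 16 Cajal body members (62.5%) and in 8 of 95 box C/D members (8.42%). Only the RNA strand was searched, for exact letters, so that a variant box was not counted. The GENCODE sequence was as long as the interval of the deposited files for 99 of the 182 members, and the reads were counted on the intervals of the files.

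Between 8101212 and 22051046 reads were counted per library, and 4 libraries of the p65-deficient clone (ICRF193 at 0 h and all 3 at 1 h) had at most 8755001, against at least 16300210 in the other 8. The normalized count of *RELA*, which encodes p65, was 694 to 909 in the 6 WT libraries and 548 to 673 in the 6 libraries of the clone. Of the epithelial markers, *EPCAM*, *CDH1*, *KRT8*, *KRT18* and *CDX2* had at least 107 reads in every library, whereas *VIL1* and *LGR5* had at most 4. Of the markers of other cell types, *PTPRC*, *PECAM1*, *COL1A2* and *DCN* had at most 3 reads in a library, and *COL1A1* had 57 to 227.

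All members together held 0.506% to 0.852% of the counted reads of a library. Scaled to the counted reads of each library (RPM), the summed reads ranged from 1605 to 2501 RPM for box C/D members, from 2467 to 4680 for box H/ACA members and from 912 to 1396 for Cajal body members. The reads were concentrated on few members. SNORA73B, also known as U17, which acts in the cleavage of the ribosomal RNA precursor, had 38.3% of the summed mean normalized counts of the box H/ACA class, and the first 3 members of each class held 42.9% (box C/D), 56.5% (box H/ACA) and 64.3% (Cajal body). A normalized count is the count divided by the DESeq2 size factor of its library. The median member had a mean of 69.7 normalized counts in the box C/D class, 170 in the box H/ACA class and 235 in the Cajal body class. Their intervals differ in length, with a median of 75 bases, 134.5 bases and 187 bases. At least 20 reads were present in all 12 libraries for 130 members, and for 12 members this held in only 1 or 2 libraries.

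**Figure D1:**
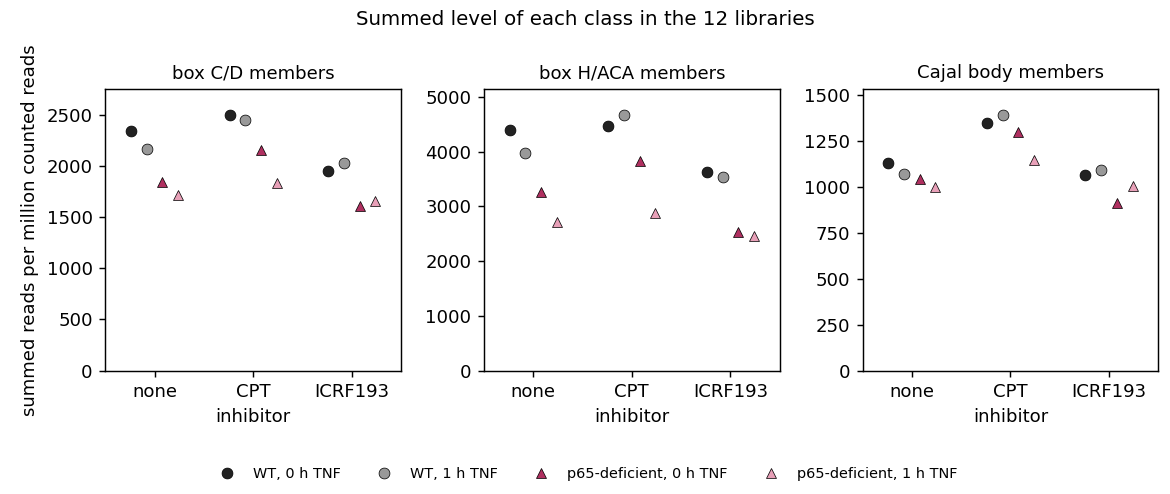
Summed RPM of the members of each class (y axes, from 0) in the 12 libraries, by inhibitor (x axes). Circles are WT and triangles p65-deficient cells, dark symbols 0 h and light symbols 1 h TNFα, with 1 library per symbol. Cajal body members lie between 1147 and 1396 with CPT, above the 1002 to 1132 with no inhibitor, and box H/ACA members lie between 3536 and 4680 in WT cells and between 2467 and 3827 in p65-deficient cells.

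Per kilobase of interval, SNORA73B was the highest at 122272 mean normalized counts, followed by SNORA63 (54587), a further box H/ACA RNA of ribosomal RNA maturation, and SNORD15B (42694). SNORD97 had 19390, SNORD17 had 14322, SCARNA2 had 14118, SNORA48 had 13447, SCARNA12 had 9276 and SCARNA10 had 5770. SCARNA2 guides the 2′-O-methylation of U2 snRNA, and SCARNA10 (U85) carries both types of boxes and modifies U5 snRNA. SNORA73B is on chromosome 1 of hg19 from 28835070 to 28835227 in an intron of *RCC1*, SNORA63 on chromosome 3 from 186505088 to 186505222 in an intron of *EIF4A2*, SNORD15B on chromosome 11 from 75115465 to 75115610 in an intron of *RPS3*, and SCARNA2 on chromosome 1 from 109642815 to 109643234 with no gene around it on its strand in the files.

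Of the 204 members, 190 lie in an intron of a gene on the same strand, 2 on an exon and 12 in no such gene, and the members with such a gene are spread over 109 genes. In all, 10 genes held at least 4 members, *GAS5* with 10, *SNHG1* with 8, and others with 4 each, among them *RPL23A*, *SNHG12*, *EIF4A2*, *SNHG17*, *NOP56*, *RPL7A* and *RPL13A*. Total RNA was sequenced, so that reads of a member, of the intron around it and of its unspliced precursor cannot be told apart. Reads were also counted without strand, so that reads from the other strand can be included.

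CPT was compared with no inhibitor to ask what TOP1 inhibition does to these RNAs. In the 4 pairs, 101 of the 204 members passed the threshold (edgeR quasi-likelihood test, Benjamini-Hochberg adjusted p below 0.05), 61 of them higher and 40 lower. Among all 14573 genes tested, 47.9% passed, 23.1% higher and 24.8% lower, so that the share of called members was near that of all genes. The classes differed in their direction. Of the 19 Cajal body members, 10 rose and 0 fell, with a median log2 fold change of 0.19 against 0.02 over all genes tested. Of the 76 box H/ACA members 23 rose and 10 fell (median 0.10), and of the 109 box C/D members 28 rose and 30 fell (median -0.01). Without the pairs as a block, 59 members passed, 29 higher and 30 lower. Here and below, shares of all genes are given only for the edgeR fits with all pairs as a block. Counts from other fits thus do not show whether members lost calls more than other genes.

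**Figure D2:**
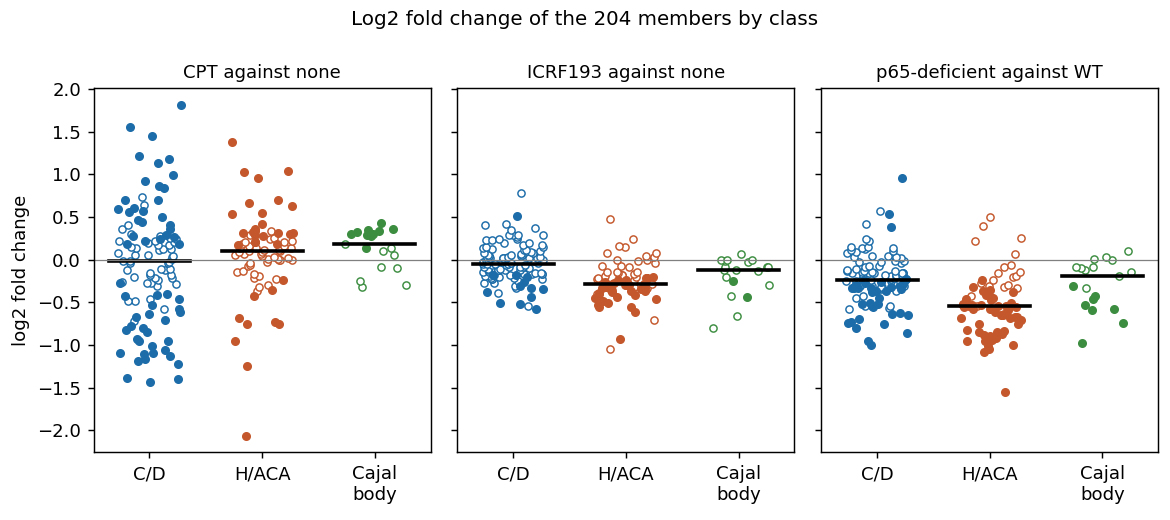
Log2 fold change (y axis) of the 204 members by class (x axis) for CPT and ICRF193 against no inhibitor and for p65-deficient against WT cells. Filled points passed the threshold, open points did not, and black lines are class medians. Under CPT box C/D members spread from -1.43 to 1.81, whereas under ICRF193 and in the p65-deficient clone the box H/ACA medians are -0.28 and -0.54.

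The Cajal body members moved by little, with a class median of 0.04 in WT cells at 0 h and of 0.24 to 0.33 in the other 3 pairs. SCARNA2 had 5573, 5511, 5808 and 4983 normalized counts with no inhibitor and 6833, 7599, 7412 and 5883 with CPT (WT at 0 h and 1 h, then p65-deficient at 0 h and 1 h). Every CPT library of SCARNA2 exceeded every library without inhibitor, and its log2 fold change was 0.33 ± 0.05 (SE, adjusted p = 0.000173). SCARNA21 rose most in the class, by 0.43 ± 0.08, from 270 to 307 normalized counts without inhibitor to 388 to 417 with CPT. SCARNA9, which guides modification of U2 snRNA, rose by 0.35 ± 0.09 and SCARNA17 by 0.34 ± 0.11. SCARNA12 (0.27 ± 0.05) and SCARNA10 (0.13 ± 0.04) were higher in all 4 pairs. Of the 19 members of all classes with a mean of at least 1000 normalized counts, 14 rose and 0 fell, by at most 0.33.

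The largest increases were in box C/D members with few reads. SNORD95, in an intron of *GNB2L1*, the gene of the ribosome-associated protein RACK1, on chromosome 5 from 180670314 to 180670376, had 64.3, 68.2, 44.9 and 32.3 normalized counts with no inhibitor and 189, 198, 183 and 196 with CPT. All 4 CPT libraries lay close together and far above the others, and the log2 fold change was 1.81 ± 0.15 (adjusted p = 2.14e-06). SNORD43, in *RPL3*, had 36.8, 34.1, 29.5 and 28.9 without inhibitor and 89.7, 106, 109 and 76.8 with CPT, again with no overlap (1.56 ± 0.15). SNORD58C, in *RPL17*, rose by 1.44 ± 0.15, from 26.8 to 34.1 normalized counts to 78.6 to 94.4. In the other direction, SNORD47 of *GAS5* had 105, 92.5, 136 and 163 without inhibitor and 50.7, 43.1, 31.2 and 59.4 with CPT, a change of -1.43 ± 0.18. SNORD78, of the same gene, changed by -1.40 ± 0.21 and SNORD19 of *GNL3* by -1.38 ± 0.25.

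Among the box H/ACA members, SNORA75 fell most. It lies in an intron of *NCL*, the gene of nucleolin, on chromosome 2 from 232320511 to 232320647. It had 177, 166, 117 and 95.2 normalized counts without inhibitor and 44, 39.4, 24.2 and 27.9 with CPT (-2.06 ± 0.13, adjusted p = 3.3e-07), while *NCL* itself had a log2 fold change of 0.03 ± 0.05, which did not pass. SNORA40, which lies in no gene on its strand, fell by 1.25 ± 0.17 on the log2 scale, and SNORA46 of *CNOT1* had a change of -0.75 ± 0.28 on a mean of 20.5 reads. Of the members with a mean of at least 20 reads, SNORA41 of *EEF1B2* (1.03 ± 0.24), SNORA13 of *EPB41L4A-AS1* (0.96 ± 0.16) and SNORA45B of *RPL27A* (0.69 ± 0.20) rose most, and below that mean SNORA60 (1.38) and SNORA2B (1.04) rose more.

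**Figure D3:**
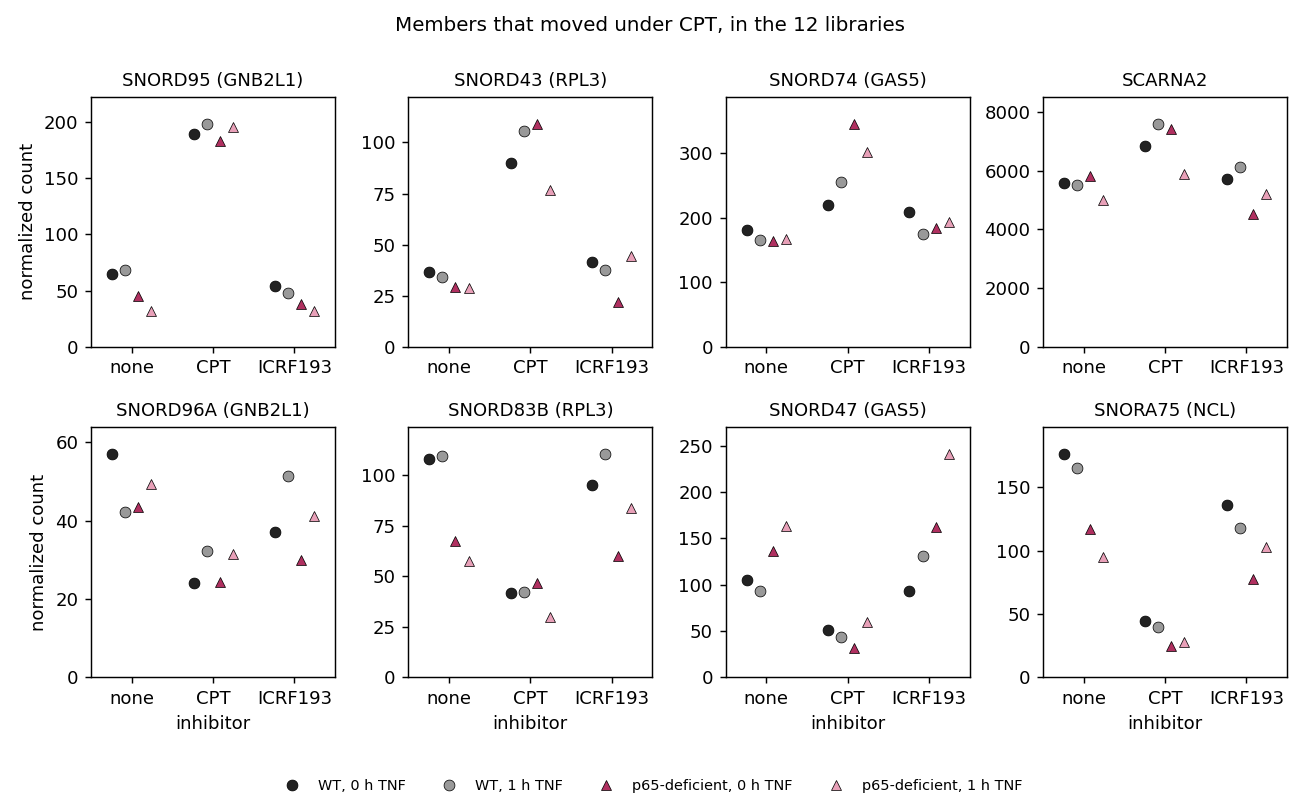
Normalized counts (y axes, from 0) of 8 members in the 12 libraries, by inhibitor (x axes), with the surrounding gene in brackets where there is one. Symbols are as in the plot of summed levels. In each of *GNB2L1*, *RPL3* and *GAS5*, the upper member is higher and the lower member is lower with CPT, and SNORA75 drops to 24.2 to 44 normalized counts.

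Members of 1 gene moved in opposite directions under CPT, which was examined after the fold changes were seen and is given as a description. Both directions passed the threshold within *GAS5*, *GNB2L1*, *RPL3* and *EIF4A2*, 4 of the 40 genes with at least 2 intronic members. Within *GNB2L1*, SNORD95 is 530 bp from the start of the gene and rose, and SNORD96A is 2017 bp from it and fell (-0.80 ± 0.19), from 42.2 to 57.1 normalized counts without inhibitor to 24.1 to 32.1 with CPT. The difference between the pair of RNAs was 1.94 to 3.25 in the 4 pairs of libraries under CPT and -0.78 to 0.37 under ICRF193. Within *RPL3*, SNORD43 at 552 bp rose, SNORD83A at 4358 bp fell by 0.43 ± 0.13 on the log2 scale and SNORD83B at 5754 bp fell by 1.09 ± 0.17, while the exonic counts of *RPL3*, which encodes a protein of the large ribosomal subunit, rose by 0.23. The nearest member was above the farthest by 2.37 to 3.01 in the 4 pairs under CPT, and the same difference was -0.25 to 0.36 under ICRF193.

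*GAS5*, a noncoding RNA gene whose introns encode only box C/D RNAs, gave the longest series. SNORD74, 242 bp from its start, had 181, 165, 164 and 167 normalized counts without inhibitor and 219, 255, 346 and 302 with CPT (0.69 ± 0.12). SNORD75 and SNORD76 at 1049 and 1272 bp had log2 fold changes of 0.12 and -0.04, neither of which passed. From 1616 bp onward all 7 members fell, with log2 fold changes from -1.43 to -0.53, and the exonic counts of *GAS5* fell by 0.99 on the log2 scale. In *SNHG1*, a noncoding gene of 8 box C/D members, 7 fell and SNORD26 did not pass (-0.05). The member nearest to the start was also lower (SNORD25 at 257 bp, -0.41), and SNORD30 at 2156 bp was the lowest (-1.23).

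**Figure D4:**
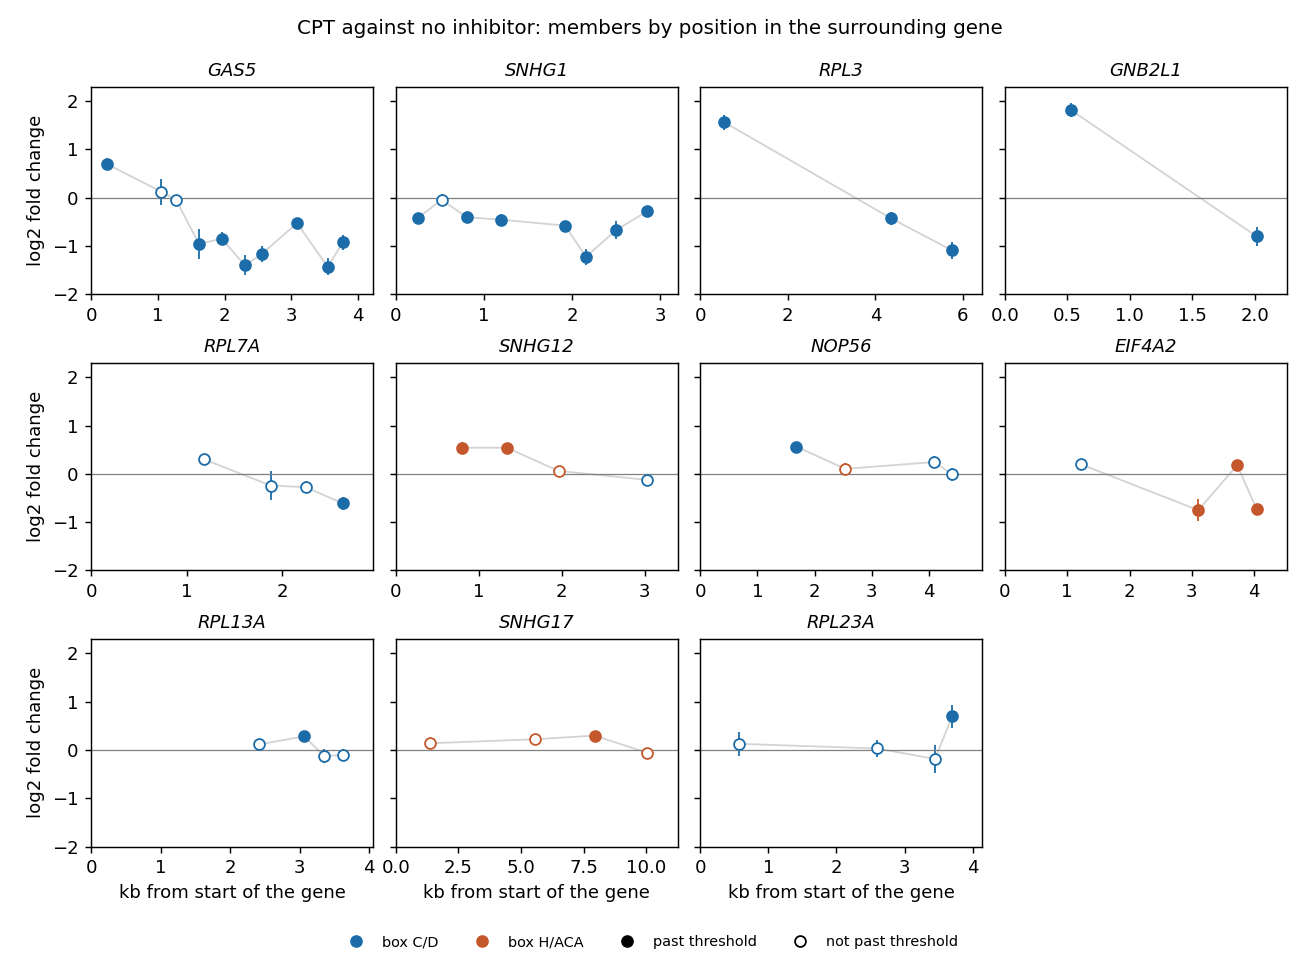
Log2 fold change with CPT against no inhibitor (y axes, points with SE) by distance from the annotated start of the surrounding gene in kb (x axes) for 9 genes with at least 4 intronic members and for *RPL3* and *GNB2L1*. Filled points passed the threshold. In *GAS5*, *RPL3* and *GNB2L1* the member nearest to the start is higher and the farthest is lower, whereas all points of *SNHG1* lie below 0 and in *RPL23A* the farthest member is the highest.

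In the other genes with at least 4 members the spread was smaller. *RPL7A*, of which SNORD36C fell (-0.61), and *SNHG12*, of which SNORA16A and SNORA44 rose (0.54 each), had their values in order of distance. SNORD110 rose in *NOP56* (0.56), SNORD33 in *RPL13A* (0.28), SNORA71A in *SNHG17* (0.30) and, as the farthest member, SNORD4B in *RPL23A* (0.69). In *EIF4A2* the order was mixed, since SNORA63 at 3727 bp rose (0.18 ± 0.06) between SNORA81 at 3103 bp (-0.75) and SNORA4 at 4041 bp (-0.74), both of which fell. SNORA4 had 844, 871, 535 and 479 normalized counts without inhibitor and 477, 469, 368 and 320 with CPT.

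Spearman's rho between distance and log2 fold change was below 0 in 9 of the 10 genes with at least 4 members under CPT (median -0.64) and in 5 of 10 under ICRF193 (median -0.01). Over the 40 genes with at least 2 members, the member nearest to the start had the higher log2 fold change in 27 genes under CPT, with a median difference of 0.43. In the 4 pairs taken singly this held in 23 to 30 genes, with medians from 0.28 to 0.39. Under ICRF193 it held in 26 genes with a median difference of 0.08, between the clone and WT cells in 26 with a median of 0.21, and between 1 h and 0 h TNFα in WT cells in 20 with a median of 0.01. The comparisons with CPT and with ICRF193 share the libraries without inhibitor. Of the 22 genes whose nearest and farthest members both had a mean of at least 50 reads, 15 were in that order with CPT (median 0.21), 16 with ICRF193 (0.08), 15 in the clone (0.20) and 9 with TNFα (-0.02). With these better counted members the CPT value was thus close to that of the clone. Over the 40 genes, the farthest member had the higher value with CPT in 13. The difference of nearest minus farthest was lowest in *SNHG5* (-1.13), *SNHG11* (-1.05) and *RPL17* (-0.85), where SNORD58C is the farthest.

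Over all 190 intronic members, the rho between distance and log2 fold change with CPT was -0.15. Of the 27 members within 1000 bp of the start, 13 rose and 4 fell (median 0.24). Of the 64 members from 1000 to below 3000 bp, 15 rose and 14 fell (median 0.08), of the 60 from 3000 to below 10000 bp, 16 rose and 13 fell (median -0.01), and of the 39 at 10000 bp or more, 13 rose and 4 fell (median 0.13). Among all genes tested 23.1% were higher and 24.8% lower. Class and distance were mixed, since box C/D members were 19 of the 27 within 1000 bp but 9 of the 39 at 10000 bp or more. From 1000 to below 3000 bp, 6 box C/D members rose and 13 fell (median -0.03), against 9 and 1 for box H/ACA (median 0.17). The rho between the fold changes of the members and of the exons around them was 0.27 over 188 members, 0.36 over 103 box C/D members and 0.16 over 68 box H/ACA members. Members of 1 gene share its transcription, and the distances use the first start annotated in the files. The 8 members on chromosome 11 just downstream of the annotated end of *TAF1D*, which count among those with no gene around them, were mixed as well: SNORA8 rose (0.21), SNORA18, SNORA1, SNORA40, SNORD5 and SNORD6 fell (-1.25 to -0.36) and SNORA25 and SNORA32 did not pass.

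Genes of snoRNP and Cajal body proteins were taken from a fixed list, of which 32 were tested. The list includes assembly factors and is not limited to proteins that bind these RNAs. With CPT 6 rose and 13 fell, so that 59.4% passed, against 47.9% of all genes tested (23.1% higher and 24.8% lower). *USPL1* (-1.68), *NPAT* (-1.21) and *COIL* (-1.06), which encodes the Cajal body protein coilin, fell most. *NHP2*, a core protein of box H/ACA particles, rose by 0.25, *PIH1D1*, a factor of snoRNP assembly, by 0.22 and *RUVBL1* by 0.21. *FBL*, the gene of fibrillarin, rose by 0.19. With ICRF193, 0 of the 32 passed in edgeR, against 2.16% of all genes tested. Of the 32, 3 had an unadjusted p below 0.05, and the log2 fold changes lay between -0.11 and 0.11.

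ICRF193 was compared with no inhibitor in the same way. Box H/ACA RNAs were lower by small amounts in the libraries with ICRF193, least in p65-deficient cells at 1 h. In the 4 pairs 1 member rose and 48 fell of 204, against 2.16% of all genes tested (0.574% higher and 1.58% lower). Of the 76 box H/ACA members 34 fell (median -0.28), of the 109 box C/D members 12 fell and 1 rose (median -0.05), and of the 19 Cajal body members 2 fell (median -0.12). The calls depended on the pairing. Without the pairs as a block 0 members passed in edgeR, 12 had an unadjusted p below 0.05, 8 passed when all 12 libraries were fitted together, and DESeq2 with the block called 11, all of them lower. The box H/ACA median was -0.37, -0.29 and -0.30 in the first 3 pairs (WT at 0 h and 1 h, p65-deficient at 0 h) and -0.06 in p65-deficient cells at 1 h. In p65-deficient cells at 0 h the ICRF193 library had 8755001 counted reads and the library without inhibitor 20524958, so that depth and ICRF193 cannot be told apart in that pair, whereas at 1 h the depths were alike (8676666 and 8101212). Summed box H/ACA reads were 2467 to 2871 RPM in the 4 libraries of the clone with low depth and 3256 and 3827 RPM in its other 2. Without the WT pair at 0 h, 29 members passed.

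SNORA23, in an intron of *IPO7* on chromosome 11 from 9450313 to 9450501, had 763, 553, 298 and 224 normalized counts without inhibitor and 425, 361, 219 and 213 with ICRF193. It was lower in each pair, although the groups overlap because WT and p65-deficient cells differed (-0.62 ± 0.07, adjusted p = 1.8e-08). SNORA74B fell by 0.93 ± 0.19 and SNORA20 by 0.56 ± 0.10 on the log2 scale. SNORD22, a box C/D RNA of ribosomal RNA processing in *SNHG1*, had 1541, 1184, 760 and 612 without inhibitor and 875, 838, 620 and 553 with ICRF193 (-0.52 ± 0.06), SNORD9 had a change of -0.57 ± 0.14 and SNORD94 of -0.51 ± 0.09. SCARNA1 (-0.44 ± 0.08) and SCARNA10 (-0.25 ± 0.04) fell. SNORD12B, in *ZFAS1*, was the member that rose, from 97.5 to 132 normalized counts to 148 to 187 (0.51 ± 0.09). None of the 108 surrounding genes tested passed in edgeR, against 2.16% of all genes tested, with 9 at an unadjusted p below 0.05. Their median log2 fold change was -0.01.

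Of a list of processing RNAs with 17 symbols, 4 were members, and the other symbols were not analysed here. SNORA73B, SNORA62 and SNORA63 rose with CPT, with log2 fold changes of 0.18, 0.21 and 0.18, and fell with ICRF193, with log2 fold changes of -0.22, -0.24 and -0.28, whereas SNORD22 was lower with both inhibitors (-0.28 with CPT). SNORA73B had 22635, 21345, 18055 and 15084 normalized counts without inhibitor, 24546, 25494, 20937 and 16949 with CPT and 19980, 19987, 14118 and 12698 with ICRF193.

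Small RNAs outside the 3 classes were mixed with CPT (median 0.04) and mostly lower with ICRF193 and in the clone. Of 9 small noncoding RNAs outside the 3 classes with at least 20 reads in a library (such as *RMRP*, *RPPH1*, *TERC*, vault RNAs and the snRNAs of the minor spliceosome), 3 rose and 2 fell with CPT, 6 fell and 0 rose with ICRF193 (median -0.35), and 6 fell and 1 rose in the clone (median -0.67). The shares that passed were 55.6%, 66.7% and 77.8%, against 47.9%, 2.16% and 30.2% of all genes tested. Their summed reads were 39011 to 45523 RPM with CPT and 35131 to 38553 RPM with no inhibitor. As for the Cajal body class, every CPT library was thus above every library without inhibitor. The sum rests mainly on *RMRP* and *RPPH1*, with up to 538979 and 359944 reads in a library, against at most 7299 for *TERC*, the next. It was 32836 to 45523 RPM in the clone and 35131 to 41908 RPM in WT cells. Whether the recovery of small RNAs differed between the libraries was not tested.

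CPT and ICRF193 were also compared directly, at the same dose and time. Of the 204 members 86 were higher and 31 lower with CPT (46.1% of all genes passed, 21% higher and 25.1% lower), or 40 and 27 without the block. The median difference was 0.37 for box H/ACA members (43 higher and 5 lower), 0.35 for Cajal body members (13 higher, 0 lower) and 0.08 for box C/D members (30 higher and 26 lower). SNORD95 (2.09 ± 0.14) was the most raised and SNORD47 (-1.71 ± 0.20), SNORA75 (-1.68 ± 0.15), SNORD19 (-1.68 ± 0.25) and SNORA40 (-1.51 ± 0.19) were the most lowered members. All 19 members with a mean of at least 1000 normalized counts were higher with CPT than with ICRF193, by 0.24 to 0.53. The box H/ACA median was 0.33 and 0.41 in WT cells at 0 h and 1 h, and 0.57 and 0.20 in p65-deficient cells. In p65-deficient cells at 0 h the counted reads were 18502365 with CPT and 8755001 with ICRF193. Depth and inhibitor cannot be told apart in that pair, whereas at 1 h the depths were alike (8154407 and 8676666).

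Few members passed the threshold between 1 h and 0 h TNFα in WT cells. In the 3 pairs 0 members rose and 2 fell, 0.98% of the members against 0.64% of all genes tested (0.612% higher and 0.0281% lower). SNORA74A, in an intron of *MATR3*, had 784, 680 and 438 normalized counts at 0 h and 554, 544 and 393 at 1 h (no inhibitor, CPT and ICRF193), a change of -0.34 ± 0.07 (adjusted p = 0.00641). SNORA23 had 763, 542 and 425 at 0 h and 553, 488 and 361 at 1 h (-0.29 ± 0.07, adjusted p = 0.038). Both were lower at 1 h in each pair, and within CPT or ICRF193 the change was smaller than without inhibitor. In the pair without inhibitor, 156 of all 204 members were lower at 1 h (median -0.14). With CPT 108 were lower (median -0.02) and with ICRF193 97 (median 0.02). The study describes the inhibitor as given before the 1 h of TNFα. In the CPT and ICRF193 pairs, TNFα and a longer inhibitor exposure at 1 h therefore cannot be told apart. Neither DESeq2 nor edgeR without the block called a member, with 7 and 2 members at an unadjusted p below 0.05, and leaving out 1 pair gave 1 to 14 calls, the 14 without the CPT pair.

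**Figure D5:**
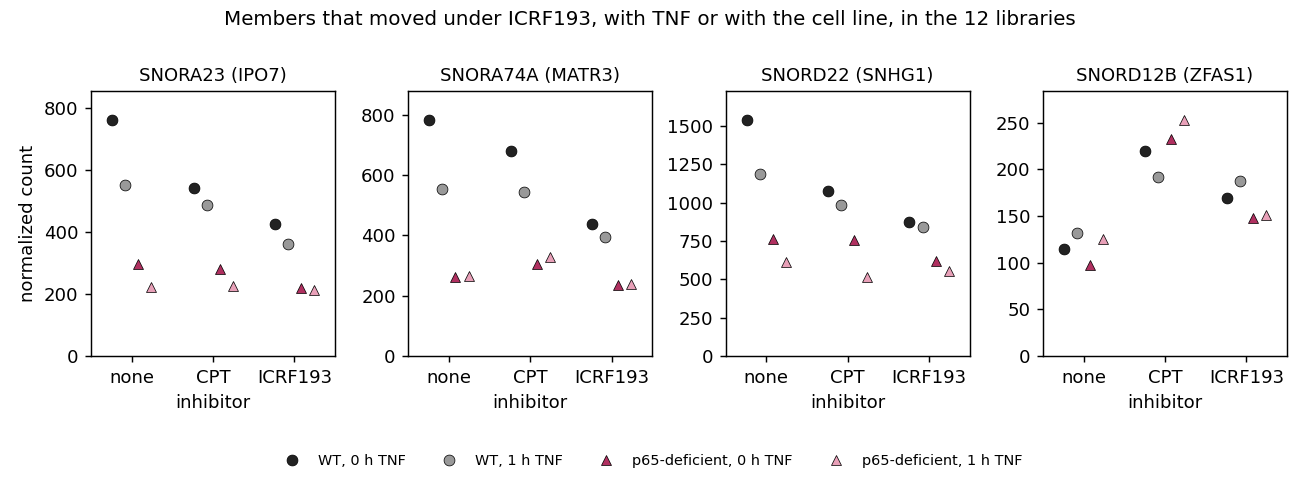
Normalized counts (y axes, from 0) of SNORA23, SNORA74A, SNORD22 and SNORD12B in the 12 libraries, by inhibitor (x axes), with symbols as in the plot of summed levels. SNORA23, SNORA74A and SNORD22 are lower in each p65-deficient library than in its matched WT library, and SNORD12B is at 97.5 to 132 normalized counts without inhibitor and at 148 to 187 with ICRF193.

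The p65-deficient clone had lower levels of box H/ACA RNAs than WT cells. In the 6 pairs 3 members were higher and 98 lower, 49.5% of the members against 30.2% of all genes tested (14.2% higher and 16% lower). Of the box H/ACA members 57 of 76 were lower (median -0.54), of the box C/D members 33 of 109 were lower and 3 higher (median -0.23), and of the Cajal body members 8 of 19 were lower (median -0.20). The box H/ACA median was between -0.73 and -0.51 in 5 pairs and -0.27 in the pair with CPT at 0 h. SNORA23 differed by -1.36 to -0.76 in the 6 pairs (-1.08 ± 0.08 in the fit), SNORA74A by -1.59 to -0.71 (-1.05 ± 0.10) and SNORA27, of *RPL21*, by -1.35 to -0.79 (-1.01 ± 0.07). SNORA46 had a difference of -1.55 ± 0.26 on a mean of 17.8 reads. Other genes of these RNAs were lower as well. Of the 32 snoRNP and Cajal body proteins tested 12 were lower and 0 higher (median -0.10), with the largest differences in *RRP9* (-0.29), a box C/D protein of the U3 particle, *TCOF1* (-0.23) and *NOP10* (-0.23), a core protein of box H/ACA particles. Of the 108 surrounding genes tested 39 were lower and 5 higher (median -0.10). The members higher in the clone were SNORD47, SNORD77 and SNORD79, all in *GAS5* (0.53, 0.96 and 0.38), whose own difference was -0.04. They are named because they are the only ones. With the 2 pairs in which the library of the clone had full depth, 28 members were lower and 0 higher, and without the block 58 were lower and 0 higher. The shares of all genes called in these fits are not given here. Depth and the clone go together in the other 4 pairs and cannot be told apart there.

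The effect of CPT differed between the cell lines for 8 members, 6 with a higher and 2 with a lower log2 ratio in the clone. This was 3.92% of the members, below the 4.78% of all genes tested (2.39% higher and 2.38% lower). Members were thus not called more often than other genes, and DESeq2 called 1 member for this difference. The values below describe single members. The effect of ICRF193 differed for 1 member, SNORA61, against 0.0567% of all genes (0.0213% higher and 0.0355% lower). SNORD36B of *RPL7A* had 36.1 and 32.5 normalized counts without inhibitor and 19.9 and 15.3 with CPT in WT cells, and 27.4 and 17.0 without and 35.9 and 34.9 with CPT in the clone, so that it was lower with CPT in both WT pairs and higher in both pairs of the clone (difference 1.51 ± 0.40, adjusted p = 0.0361). SNORD97, in *EIF4G2* and among the most abundant members, had 2565 and 2551 without inhibitor and 3749 and 3640 with CPT in WT cells, and 2726 and 2632 without and 2708 and 2890 with CPT in the clone. It was thus raised with CPT in WT cells by 0.55 and 0.51 and differed by -0.01 and 0.13 in the clone (difference -0.50 ± 0.08, adjusted p = 0.000975). SNORD101 of *RPS12* was raised in all 4 pairs, by 0.85 and 0.81 in WT cells and by 1.75 and 1.47 in the clone. SNORA45B and SNORD31 had differences of 1.14 and 0.97 and SNORA32 of -1.23.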

How the data were processed

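RNA-seq of HCT116 cells was analysed in 12 libraries, 1 per combination of cell line, inhibitor and TNFα. The authors deposited raw read counts, made with featureCounts 1.5.0 on the exons of 26364 gene symbols (hg19) according to the headers, with no strand, multi-mapping or overlap option, so that reads over more than 1 gene were left unassigned. The labels name Trimmomatic and STAR, and the methods state that 10 bases were removed from read starts and reads under 36 bases dropped. Such libraries recover short RNAs incompletely. Of the 204 members, 5 share exon bases with another gene and 5 are listed on several intervals.

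The members, the gene lists and the tests were chosen with earlier results of these data known. Each comparison used edgeR 4.0.16 (quasi-likelihood test, TMM, expression filter with the design, the matched pair as a block, Benjamini-Hochberg adjustment over all genes tested, threshold 0.05). All 204 members were tested in each. The matched pairs took the place of replicates although their conditions differ, and nothing says that the libraries came from separate cultures, so that p-values measure only the spread between these libraries. The pairing follows the design of matched conditions. The SE of a fold change is its size divided by the root of the F statistic. Normalized counts used DESeq2 1.42.0 size factors over all 12 libraries, and pair differences are log2 ratios of them. Scripts were tested on simulated data.

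Named were, per class, the 3 members with the highest mean normalized count, the 3 raised and 3 lowered most by each inhibitor (past the threshold, mean count of at least 20, same direction in all 4 pairs), the processing RNAs, up to 5 members in each other comparison and the genes with at least 4 members. Other members of *GNB2L1*, *RPL3* and *RPS12*, SNORA4, SNORA60, SNORA2B and the members quoted by position were chosen after their values were seen. Of the genes with at least 4 members, 1 is not reported here. The gene around a member is the one on its strand whose span holds it, and among several the one with most reads. Alternatives were other normalizations and filters, DESeq2, no block, leaving out pairs, WT pairs only, all libraries in 1 fit, full-depth pairs and other read minimums. Tables were handled in Python 3.11.15 (pandas 2.3.3, scipy 1.17.1, numpy 2.4.6), figures drawn with matplotlib 3.10.9 and models run in R 4.3.3 with limma 3.58.1.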

Additional observations from a re-analysis of the deposited data

Results flagged for a closer look

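The effect of an inhibitor differed between WT and p65-deficient cells, by the interaction term in edgeR, for 9 results. For CPT this was 3.92% of the members, below the 4.78% of all genes tested. For ICRF193 it was 0.49% of the members, against 0.0567% of all genes. For CPT, the effect in p65-deficient minus that in WT cells was 1.51 for SNORD36B, 1.14 for SNORA45B, 0.97 for SNORD31, 0.80 for SNORD101, 0.56 for SNORA16A, 0.50 for SNORA61, -0.50 for SNORD97 and -1.23 for SNORA32 on the log2 scale. SNORD31 of *SNHG1* had log2 ratios of -1.18 and -1.08 in the WT pairs and of -0.03 and -0.31 in the pairs of the clone. SNORA45B of *RPL27A* had 0.08 and 0.41 in WT cells and 1.55 and 1.06 in the clone, and SNORA16A of *SNHG12* had 0.14 and 0.45 against 0.97 and 0.69. SNORA32 had 0.55 and -0.08 in WT cells and -0.89 and -0.96 in the clone. For ICRF193, SNORA61 of *SNHG12* had a difference of 0.62, with log2 ratios of -0.66 and -0.58 in WT cells and -0.21 and 0.30 in the clone (edgeR adjusted p = 0.0433). Both differences of SNORA61 come from fits that share the libraries without inhibitor. Each cell line gave 2 pairs, and DESeq2 called 1 member for CPT and 0 for ICRF193, where 7 had an unadjusted p below 0.05.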

How the results depend on the processing

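The number of members past the threshold was within 1.5 times the reported one under most alternatives, and the results named below are the exceptions. Without the replicate block, so without the pairing, it was 59 in place of 101 for CPT, 0 in place of 49 for ICRF193, 67 in place of 117 for CPT against ICRF193, 0 in place of 2 for TNFα and 58 in place of 101 for the clone. With DESeq2 it was 11 for ICRF193, 0 for TNFα, and 1 in place of 8 and 0 in place of 1 for the differences of the CPT and ICRF193 effects between cell lines. Without a filter on low counts it was 6 for TNFα and 15 and 4 for these differences, and for the ICRF193 difference it was 0 with DESeq2 size factors and 0 with a mean of at least 20 reads. Where 0 members passed, an unadjusted p below 0.05 was found in edgeR for 12 (ICRF193) and 2 (TNFα) without the block and for 39 and 38 under the last 2 settings, and in DESeq2 for 7 (TNFα) and 7 (the ICRF193 difference). With all 12 libraries in 1 fit it was 8 for ICRF193, and with full-depth pairs alone 28 for the clone. Leaving out each pair in turn gave 71 to 87 for CPT, 29 to 50 for ICRF193, 96 to 115 for CPT against ICRF193, 1 to 14 for TNFα and 84 to 117 for the clone. No pair was left out for the differences between cell lines. The share of all genes called under each alternative is not given. These counts thus do not show whether members gained or lost calls more than other genes. The cause was not tested.

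For 89 named fold changes and 908 recomputed values, 0 changed direction with a call, 811 stayed on their side of the threshold, 81 lost and 16 gained the call. A read minimum of 10 or 50 gave 226 or 166 members. Total counts limit the precision of members near 20 reads, and 74 members had fewer than 20 reads in at least 1 library.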
